A study of Sus scrofa with 8 samples.

Results

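The spliceosome and RNA-binding genes described here are the 50 genes on the array whose single symbol in the platform annotation begins with SNRP, LSM, SF3A, SF3B, SRSF, HNRNP, PRPF or DDX, out of 2922 genes with 1 symbol. No gene on the array had a symbol that begins with U2AF. By family there were 10 SNRP genes, 7 LSM genes, 2 SF3 genes (SF3A3 and SF3B5), 5 SRSF genes, 12 HNRNP genes, 5 PRPF genes and 9 DDX genes. The rule rests on names only and uses no measured value, but it was chosen with earlier results of these data known. All 50 symbols also occur in the pig gene tables.

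The spliceosome is the RNA and protein machine that cuts introns out of precursor mRNA. Its small nuclear ribonucleoproteins (snRNPs) each hold a short RNA in a ring of Sm or Lsm proteins, which the SNRP and LSM genes encode. SF3 proteins anchor the U2 snRNP at the branch point, PRPF proteins drive the assembly and the rearrangement of the machine, and SRSF and HNRNP proteins bind the transcript and help to decide which exons are used. DDX genes encode RNA helicases with many roles, from splicing to mRNA export and ribosome assembly. In skeletal muscle, alternative splicing sets which forms of the sarcomere and calcium-handling proteins are made.

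The question of the study was the effect of dietary energy on gene expression in the skeletal muscle of pigs. Muscle RNA from a high energy diet group and from a low energy diet group was hybridised in competition on 8 arrays with 2 dyes, without a common reference RNA. The labels give 4 couples: low energy 49 with high energy 40, 61 with 41, 142 with 40 again, and a last couple of low energy be with high energy ae, whose letters are not explained. Each couple was hybridised with the high energy sample in Cy5 and again with it in Cy3, and the mean of the 2 arrays counts as 1 replicate. This gives n = 4, with 1 high energy sample used in both couple 1 and couple 3. The labels name no breed, age, sex, muscle or feeding time, and do not say whether a sample is 1 animal or a pool. The errors rest on the spread between these couples, part of which may be technical.

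All values are log2 ratios of high over low energy. This direction is the likely one, since every array is labelled with low energy as channel 1 and high energy as channel 2, with the low energy diet called the reference, but it is not stated for the deposited values. For that reason a turned value is given beside many ratios. To obtain it, ratios from arrays where Cy3 labelled the high energy sample were reversed in sign before averaging. It is the dye effect if the direction is as assumed, and the diet ratio if the files hold Cy5 over Cy3. For Cy3 over Cy5 it is the diet ratio with the opposite sign. Errors are standard errors over couples from limma, the linear model fitted across all features, and intervals are its 95% intervals. The model draws the variance of each feature toward that of all features. A steady gene can therefore have a larger error than its own couples give, and the smallest error of all genes tested was 0.079. In whole tissue, fewer cells of a type and less RNA per cell cannot be told apart.

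Between 77.6% and 94.4% of the 9984 spots had a value on an array, and the SD of an array's ratios was 0.341 to 0.724. Brightness was not among the values used. A lower bound on it, called the recovered signal here, was read from the deposited ratios, most of which are ratios of 2 whole numbers. It is used only to say how well a spot was measured, not as a level. The 10 skeletal muscle markers examined, were all measured, with a median recovered signal of 755.5. Their median ratio was -0.026, and 4 of 10 were above 0. MYL1 at 0.37 and MB at -0.32 had an unadjusted p under 0.05 in limma. Of all features, 1.37% had such a p above 0 and 2.41% below 0. MYL1 and CKM were above 0 on all 8 arrays. The measured markers of other cell types lay on both sides: medians were 0.12 for 4 matrix genes, 0.19 for 3 vessel genes, -0.072 for 2 fat cell genes, -0.049 for 3 immune genes and -0.0018 for 4 blood genes, and the 1 nerve marker had 0.37. Their part in the ratios below was not tested.

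Of the 50 genes, 43 had both dye orientations in at least 3 couples and entered the test. In limma's test over all 5025 features, none of the 43 passed a Benjamini-Hochberg adjusted p of 0.05 (smallest adjusted p = 0.996), and the share of all features called was 0%. Of the 43 genes, 18 lay above 0 and 25 below, with a median log2 ratio of -0.029, against -0.012 for all features tested and -0.0087 for all 2556 genes tested. The median size of a ratio was 0.084 with a median standard error of 0.13, so the typical ratio was smaller than its error. All genes tested had 0.078 and 0.12. One gene, LSM7, was above 0 at an unadjusted p under 0.05, where 1.37% of all features were. None was below 0 at that level, where 2.41% of all features were. That is 1 of 43, or 2.33%, and close to the background. With all 8 arrays and the couple as a replicate block the count was 2 (4.65%), LSM7 and SNRPG, where 7.02% of all features had such a p in either direction.

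**Figure D1:**
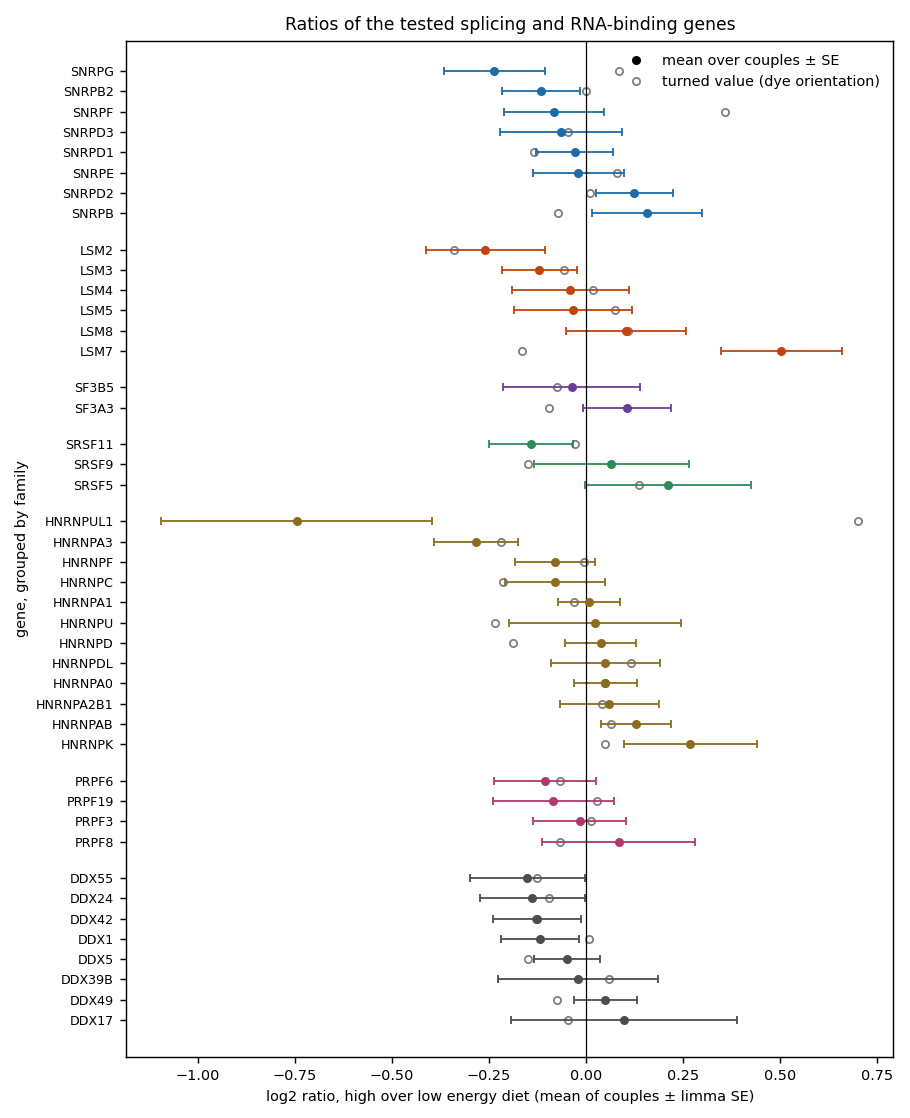
Mean log2 ratio of high over low energy muscle for each of the 43 tested genes (filled points, bars are limma standard errors over 3 or 4 couples), grouped by family, with the turned value as open circles. LSM7 at 0.50 and HNRNPUL1 at -0.75 lie outside the range of -0.28 to 0.27 that holds the other 41 genes.

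For most of these genes the interval bounded the ratio, but the 2 arrays of a couple hardly repeated each other. Their departures from a feature's mean had an estimated correlation of -0.036 over all features tested. For 36 of the 43, or 83.7%, the 95% interval lay within a 1.5-fold difference either way, compared with 73.7% of all features. These shares cannot be compared directly, since features without a single symbol are single spots with no averaging. Why the shares differ was not tested. The median standard error was 0.13 for the 43 genes and 0.12 for all genes tested, so it was no smaller here. The 7 of the 43 whose interval reached past 1.5-fold were LSM7, LSM2, HNRNPUL1, HNRNPK, SRSF5, PRPF8 and DDX17. HNRNPA1, an abundant packaging protein of nuclear RNA, had the smallest SD over arrays of the 43 tested genes, 0.052. It averages up to 4 spots at 2 places on the array, which lay on opposite sides with means of -0.058 and 0.077. Its 8 ratios lay between -0.084 and 0.072 with a median of 0.018, and its mean was 0.0085 ± 0.080, with an interval of -0.19 to 0.21. These intervals hold for the assumed direction only.

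Among the SNRP genes, which encode the shared Sm core and proteins particular to single snRNPs, 2 of the 8 tested were above 0 and 6 below, with a median of -0.047. The Sm core is a ring of small proteins closed around the snRNA. SNRPG, a member of that ring, had the smallest p of the family. With high energy in Cy5 its ratios in couples 1 to 4 were 0.19, -0.30, -0.46 and -0.025, and with high energy in Cy3 they were -0.065, -0.17, -0.24 and -0.70. It was below 0 on 7 of 8 arrays, with couple 1 the only one whose mean was above 0, and its mean ratio was -0.24 ± 0.13 (turned 0.085). SNRPD2, another ring protein, lay on the other side. Its values were 0.18, 0.10, 0.41 and -0.043 with high energy in Cy5 and 0.054, 0.17, 0.22 and 0.025 with high energy in Cy3. It was above 0 on 7 of 8 arrays, with a mean of 0.12 ± 0.10 (turned 0.010). SNRPD2 has spots at 2 places on the array, and they differed: one place gave -0.0062 and the other 0.29, so the ratio above 0 came from one of them.

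SNRPB2, a protein of the U2 snRNP, had a typical gap of 0.054 between its duplicate spots. Its values were -0.041, 0.063, 0.028 and -0.44 with high energy in Cy5 and 0.027, -0.080, -0.15 and -0.22 with high energy in Cy3. Couple 4 was low on both arrays, and the others lay within 0.15 of 0. The mean of -0.12 ± 0.10 (turned -0.00016) became -0.023 without couple 4. SNRPB, the Sm protein that also carries the B' form, had 0.16 ± 0.14, and SNRPD1, SNRPD3, SNRPE and SNRPF had ratios of -0.029, -0.065, -0.019 and -0.082. SNRPF differed most by dye of all SNRP genes. With high energy in Cy5 it had 0.018, 0.66, -0.032 and 0.070, and with high energy in Cy3 it had -0.30, -0.50 and -0.50 in couples 1 to 3 and no value in couple 4. Its turned value was 0.36 ± 0.14, with an unadjusted p of 0.054 in limma. SNRPA1 of the U2 snRNP and SNRPC of the U1 snRNP had both orientations in 2 couples only and were not tested. Their arrays ranged from -0.52 to 0.26 and from -1.0 to 0.35.

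LSM genes encode relatives of the Sm proteins. One Lsm ring holds the end of U6 snRNA in the nucleus, and another, with which it shares most subunits, acts in mRNA decay in the cytoplasm. LSM7 belongs to both rings. Its ratios with high energy in Cy5 were 0.33, 0.34, 0.72 and 0.096 in couples 1 to 4, and with high energy in Cy3 they were 1.03, 0.60, 1.17 and 0.16. Every array was above 0, and in each couple the array with high energy in Cy3 was the higher. Couples 1 and 3, which share high energy sample 40, were the highest at 0.68 and 0.94, and couples 2 and 4 had 0.47 and 0.13. The mean was 0.50 ± 0.16, a 1.42-fold higher value in high energy muscle, with an interval of 0.11 to 0.90.

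LSM7 was the only gene here above 0 on all 8 arrays, out of 32 with a value on every array, and none was below 0 on all 8. Among all features with 8 values, 0.797% were above 0 and 1.46% below 0 on every array. Its duplicate spots repeated each other: one was above 0 on 8 of 8 arrays and the other on 7 of 8, with a typical gap of 0.18 between them and a recovered signal of 1789. By unadjusted p it ranked number 20 and by signed ratio number 13 of 2556 genes, and its adjusted p = 0.996 in limma left it uncalled. Leaving out a couple gave 0.43 to 0.67. The turned value was -0.16 ± 0.097, which would be the size of the diet ratio if the files hold dye ratios, and the constant sign would then be an effect of the dye.

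**Figure D2:**
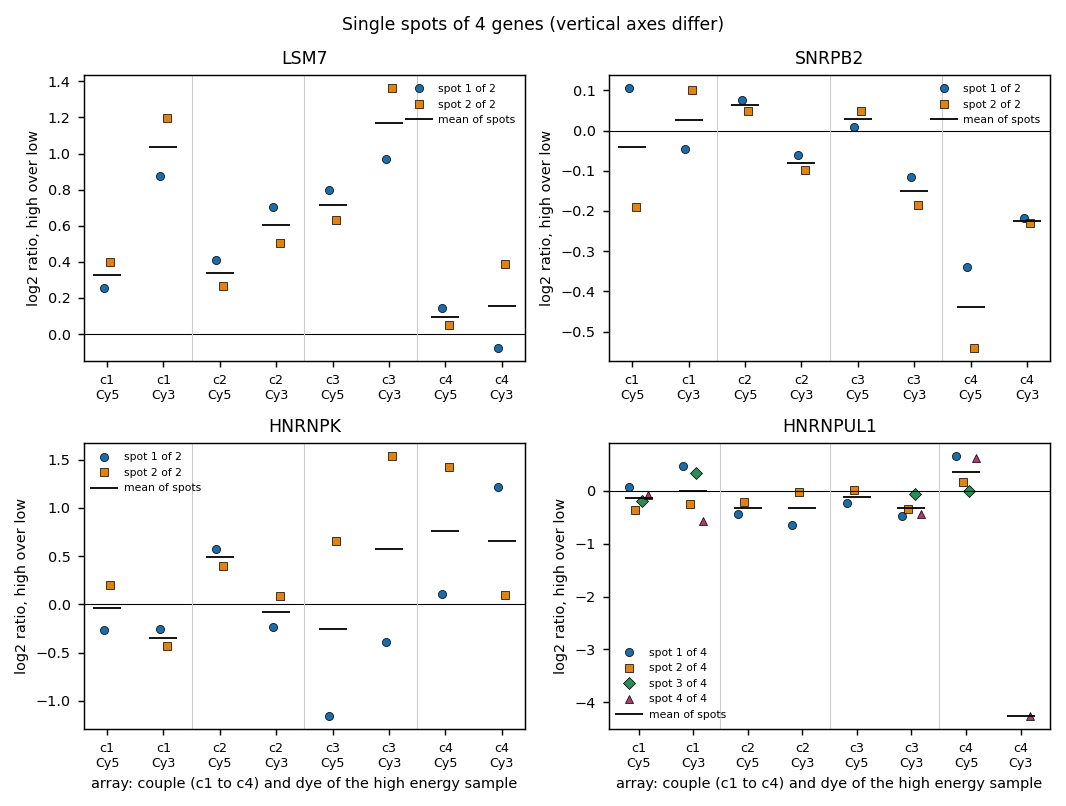
Log2 ratios of every single spot (symbols) and their mean (black bars) on the 8 arrays for LSM7, SNRPB2, HNRNPK and HNRNPUL1, by couple and by the dye of the high energy sample, with a vertical scale of its own in each panel. Of the LSM7 spot values only 1, at -0.079 in couple 4 with high energy in Cy3, is below 0, those of HNRNPK part by more than 1 log2 unit on 4 arrays, and 1 spot of HNRNPUL1 at -4.26 stands alone.

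The other LSM genes lay closer to 0 than LSM7. Of the 6 LSM genes tested, 4 were below 0, and the family median was -0.037. LSM3, a subunit of both rings with a recovered signal of 2605, had -0.17, 0.10, -0.50 and -0.25 with high energy in Cy5 and -0.067, -0.051, -0.075 and -0.064 with high energy in Cy3. It was below 0 on 7 of 8 arrays, and its mean of -0.12 ± 0.10 (turned -0.057) lay within 1.5-fold of no difference. LSM2, measured in 3 couples, had 0.067, -0.68, -1.15 and 0.13 with high energy in Cy5 and -0.40, 0.37 and 0.14 with high energy in Cy3. Its arrays scattered on both sides, with a mean of -0.26 ± 0.15 (turned -0.34). The value in couple 3 with high energy in Cy5 joins spots of 0.24 and -2.54. LSM4 and LSM5 had -0.040 ± 0.15 and -0.033 ± 0.15, and LSM8, the subunit particular to the nuclear ring, had 0.10 ± 0.15. LSM10, a subunit of the U7 snRNP that matures histone mRNA, had both orientations in 2 couples and was not tested, with arrays between -0.32 and 0.40. Whether LSM7 differs from the other LSM genes was not tested.

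Both SF3 genes had means close to 0, but their spots disagreed. SF3A3 had 0.066, -0.18, 0.056 and 0.14 with high energy in Cy5 and -0.062, 0.44, 0.60 and -0.14 with high energy in Cy3. Its arrays fell on both sides, with a mean of 0.10 ± 0.11 (turned -0.095), and its 2 places on the array gave 0.34 and -0.043. SF3B5, a small subunit of SF3B, had a mean of -0.037 ± 0.18 (turned -0.075) and arrays between -0.68 and 0.88. One of its spots had a mean of -0.50 and was above 0 on 0 of 8 arrays. The other had 0.46 and was above 0 on 5 of 8, so the ratio of SF3B5 was left unresolved. The sign of the SF3B5 mean changed when couple 1 or couple 4 was left out, to 0.0042 and 0.17.

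SRSF proteins carry stretches rich in arginine and serine and mostly favour the use of exons. SRSF11, with a recovered signal of 1307, had -0.35, 0.17, -0.38 and -0.26 with high energy in Cy5 and 0.18, -0.047, 0.10 and -0.51 with high energy in Cy3. The orientations overlapped, and the mean was -0.14 ± 0.11 (turned -0.030), or -0.038 without couple 4. SRSF5 had 0.21 ± 0.22 (turned 0.14), which rested on couple 3: its arrays there had 0.77 and 0.83, and without that couple the mean was 0.060. SRSF9 rested on couple 4, where its arrays had 0.54 and 0.80. In the other couples they lay between -0.47 and 0.11, and the mean of 0.065 ± 0.20 (turned -0.15) became -0.19 without couple 4. SRSF3 and SRSF6 were not tested, with both orientations in 2 couples and in 0 couples. SRSF3 ranged from -0.99 to 0.63 over 6 arrays and SRSF6 from -0.65 to 0.16 over 4.

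HNRNP proteins coat precursor mRNA and often oppose the use of exons. All 12 HNRNP genes were tested, 8 above 0 and 4 below, with a median of 0.030. HNRNPUL1, a relative of the scaffold protein HNRNPU, had the largest ratio of all 43 genes at -0.75 ± 0.35 (turned 0.70). Its values were -0.14, -0.33, -0.12 and 0.36 with high energy in Cy5 and -0.0072, -0.34, -0.33 and -4.26 with high energy in Cy3. The last value came from 1 spot, the only one of its 4 spots with a value on that array, with a recovered signal of 248. The swapped array of the same couple lay above 0, and without couple 4 the mean was -0.23. The median over the 8 arrays was -0.24.

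HNRNPA3, close in sequence to HNRNPA1, had the next smallest p after LSM7. It had 0.23, -0.21, -0.46 and -0.83 with high energy in Cy5, and -0.016, -0.32 and 0.15 in couples 2 to 4 with high energy in Cy3. It was below 0 on 5 of 7 arrays, with a mean over 3 couples of -0.28 ± 0.11 (turned -0.22) and an interval of -0.57 to 0.0042. Its duplicate spots had means of -0.086 and -0.48 and a typical gap of 0.55, larger than its ratio. They had the same sign on 4 of 7 arrays. HNRNPK, which binds stretches of C in RNA, had the second highest mean after LSM7. It had -0.036, 0.49, -0.25 and 0.77 with high energy in Cy5 and -0.35, -0.075, 0.57 and 0.66 with high energy in Cy3. Couple 4 was high on both arrays and the rest were mixed, so the mean of 0.27 ± 0.17 (turned 0.048) became 0.079 without couple 4. The high values of couple 4 came from different spots. With high energy in Cy5 one spot had 1.43 and the other 0.10. With it in Cy3 the first had 0.10 and the other 1.22. The duplicate spots of HNRNPK had a typical gap of 0.80, larger than its ratio.

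The other 9 HNRNP genes had ratios between -0.080 and 0.13. HNRNPAB, an RNA-binding protein of nucleus and cytoplasm, was above 0 in all 4 couples (0.097, 0.083, 0.011 and 0.27) with a mean of 0.13 ± 0.091, and was bright, with a recovered signal of 1505. HNRNPA2B1 had 0.061 ± 0.13 and HNRNPU 0.023 ± 0.22. HNRNPD, which binds AU-rich elements of mRNA, differed more between dye orientations than from 0. It had -0.037, -0.0098, 0.12 and -0.55 with high energy in Cy5 and 0.078, 0.059, 0.25 and 0.47 with high energy in Cy3, the higher of each couple in Cy3. Its mean was 0.038 ± 0.091 and its turned value -0.19 ± 0.12. HNRNPC had -0.080 ± 0.13 and a turned value of -0.21 ± 0.095.

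Of the 4 PRPF genes tested, 3 were below 0, with a family median of -0.051. PRPF8, the large protein at the heart of the spliceosome, had -0.48, 1.21 and -0.68 in couples 2 to 4 with high energy in Cy5 and -0.30, 0.32, -0.018 and 0.15 in couples 1 to 4 with high energy in Cy3. The value of 1.21 came from 1 of its 2 spots, and the mean over 3 couples of 0.084 ± 0.20 (turned -0.066) became -0.17 without couple 3. PRPF6, which bridges the parts of the tri-snRNP, had -0.11 ± 0.13 and arrays between -0.44 and 0.25. PRPF19, a ubiquitin ligase of the active spliceosome, had -0.084 ± 0.16 and PRPF3, also of the tri-snRNP, -0.017 ± 0.12. PRPF38B had no couple with both orientations, and its 4 arrays lay between -0.083 and 0.061.

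Among the DDX helicases, 2 of the 8 tested were above 0 and 6 below, with a median of -0.084 (turned -0.085). Without couple 4 this median was -0.021. DDX1, a bright gene with a recovered signal of 1164, had 0.049, -0.064, -0.026 and -0.32 with high energy in Cy5 and -0.0072, 0.022, -0.23 and -0.29 with high energy in Cy3. It was low on both arrays of couple 4 and near 0 in couples 1 and 2, with a mean of -0.12 ± 0.10 (turned 0.0088), or -0.039 without couple 4. DDX42, a helicase found with SF3B, was below 0 on 7 of 8 arrays, which ranged from -0.57 to 0.44, and had -0.13 ± 0.11 (turned -0.13). DDX55, a helicase of the nucleolus, rested on couple 4, where its arrays had -0.57 and -0.54. Its mean of -0.15 ± 0.15 (turned -0.13) became 0.021 without that couple.

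DDX5 and DDX17, a pair of close relatives that also act as coactivators in muscle differentiation, had -0.050 ± 0.085 and 0.098 ± 0.29. Both means lay within their errors. DDX5 has spots at 2 places on the array, which lay on opposite sides. The dimmer place gave -0.15, with a recovered signal of 314, and the brighter 0.036, with 1143.5. DDX39B, which loads onto spliced mRNA for export, had -0.020 ± 0.21, and DDX24 and DDX49 had -0.14 ± 0.13 and 0.050 ± 0.082. DDX56 had both orientations in 2 couples and was not tested. Its 5 arrays ranged from -0.60 to 1.17, the last value from 1 spot with a recovered signal of 255.

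**Figure D3:**
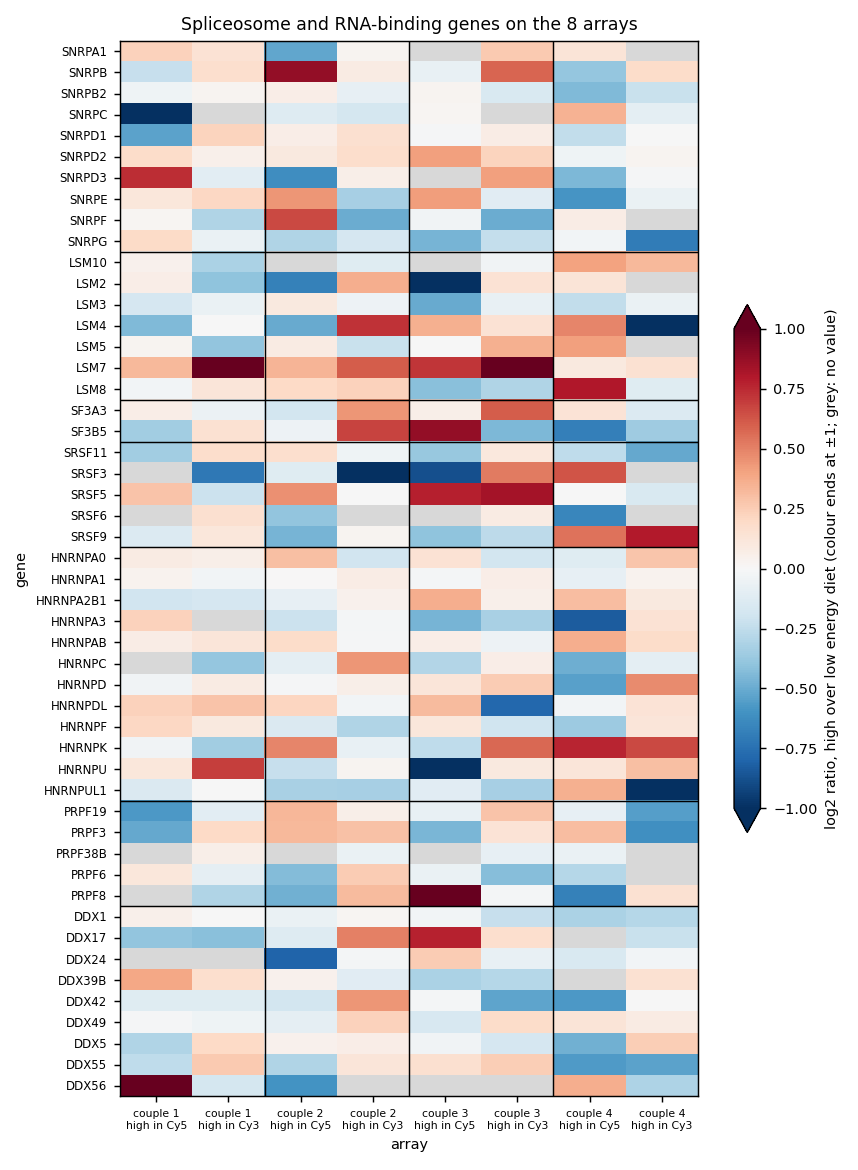
Log2 ratio of high over low energy muscle for all 50 genes (rows, grouped by family) on the 8 arrays (columns, in couples, with the dye of the high energy sample), with colours ending at 1 log2 unit either way and grey for no value. LSM7 is the only row above 0 throughout, and the other rows change sign between arrays or lack values.

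The sign of a ratio often differed between the arrays of a couple. Both arrays of a couple had the same sign for 18 of 39 genes in couple 1, 14 of 43 in couple 2, 21 of 42 in couple 3 and 22 of 37 in couple 4. These are 46.2%, 32.6%, 50.0% and 59.5%, against 52.3%, 48.7%, 52.9% and 48.8% of all features. Across couples, 4 of 32 genes (LSM7, HNRNPAB, HNRNPUL1 and SNRPB2), or 12.5%, had 1 sign in all 4 couple means, against 16.6% of all features. In HNRNPUL1 the sign of couple 4 was set by the single spot at -4.26, since the swapped array had 0.36. Couple 4 gave the lowest median, -0.12 for these genes and -0.026 for all features, while couples 1 to 3 gave -0.0070, 0.054 and -0.0035. Without couple 4 the median of the 43 genes was 0.015.

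The dye orientation itself gave no call. In limma's test of the turned value, 0 of the 43 genes and 0% of all features passed (smallest adjusted p = 0.998). At an unadjusted p under 0.05, none of the 43 was higher with high energy in Cy5, where 1.41% of all features were, and none was higher with it in Cy3, where 1.23% were. No gene with 8 values had all arrays of one orientation above 0 and all of the other below, as 0.687% of all features did.

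Brighter spots gave steadier ratios. The 6 genes with a median recovered signal of at least 1000 (DDX1, HNRNPAB, LSM3, LSM7, SNRPB2 and SRSF11) had a median SD over arrays of 0.17, and the other 37 had 0.35. Among all genes tested, these medians were 0.16 for 534 genes and 0.33 for 2022. Duplicate spots of the 50 genes had the same sign in 73.2% of 56 comparisons where bright and in 56.6% of 311 where dimmer, with typical gaps of 0.15 and 0.39. Over all genes these shares were 60.2% and 54.7%, closer together, with gaps of 0.14 and 0.37. Values from which no signal was recovered are left out of a gene's median signal. They made up 11 of 16 in DDX1 and DDX49, 12 of 16 in SNRPB2 and 10 of 16 in HNRNPD. The class of these genes is therefore uncertain. If such values count as bright, as in the setting without dim values, DDX49 and HNRNPD would join the bright genes. The median size of the ratio was 0.12 in the 6 bright genes, where LSM7 and HNRNPAB were above 0 and the other 4 below.

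**Figure D4:**
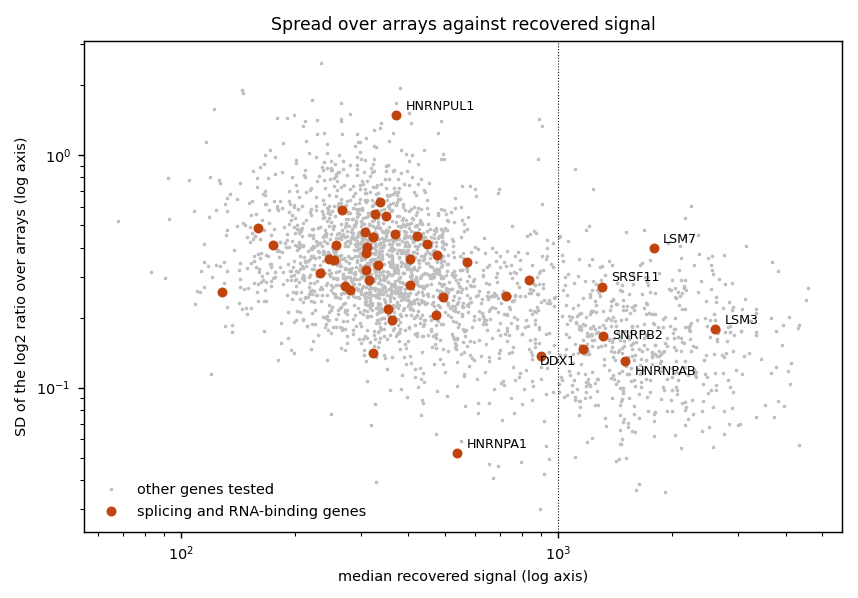
SD of the log2 ratio over arrays against the median recovered signal, both on log axes, for the 43 tested genes (orange) and the other genes tested (grey), with a dotted line at a signal of 1000. The spread falls from left to right, and LSM7 has the largest spread of the 6 bright genes while all its arrays are above 0.

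Partners of these genes with other names were taken from 6 lists: snRNP and PRPF19 complex partners, DEAH helicases, assembly by the SMN complex, exon junction and export, other splicing regulators, and RNA tails. Of their 173 genes, 61 were on the array and 56 were tested, 27 above 0 and 29 below, with a median of -0.0096. None passed the threshold in limma (adjusted p = 0.996 or higher). At an unadjusted p under 0.05, 1 was above 0, where 1.37% of all features were, and 1 below, where 2.41% were. These were STRAP, which helps the SMN complex to load Sm rings, at 0.42 ± 0.089 (turned 0.19), and RBM4, a splicing regulator, at -0.39 ± 0.13 (turned -0.14). STRAP was above 0 on 6 of 8 arrays and RBM4 on 2 of 7.

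The list medians were 0.0077 for 14 snRNP and PRPF19 complex partners, -0.049 for 3 DEAH helicases, 0.22 for 2 SMN assembly genes, 0.033 for 7 exon junction and export genes, -0.024 for 25 other regulators and -0.023 for 5 genes of RNA tails. PCBP2, a C-binding protein related to HNRNPK, was above 0 on all 8 arrays at 0.15 ± 0.095 (turned -0.025). EFTUD2, the GTPase that works with PRPF8, had -0.044 ± 0.087, and SRPK3, the muscle kinase of SR proteins, -0.019 ± 0.089. The highest of the 56, XAB2, a partner of the PRPF19 complex, had 0.60 ± 0.35, with 1 array at 2.66 and the other 6 between -0.26 and 0.60. The lowest, PPIG, a cyclophilin of the nucleus, had -0.79 ± 0.65, with 1 array at -5.29.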

How the data were processed

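The authors deposited 1 log2 ratio per spot and array, a unit read from the values themselves. Per the labels' design text, Cy3 and Cy5 cDNA was scanned on a ScanArray LITE. The correction, filtering and normalization of spots, steps not given in the sources used here, could move every ratio. Array medians lay between -0.0071 and 0.011. Arrays were centred on their medians, spots of a gene were averaged, and the swapped arrays of a couple were averaged. Features with both orientations in at least 3 couples were fitted with limma 3.58.1 (R 4.3.3), two-sided against 0, with high energy sample 40 as a block at an assumed correlation of 0.5 and Benjamini-Hochberg adjustment over 5025 features. The observed correlation of couples 1 and 3 across features was 0.064. Couples pair the arrays, per the titles. The fit was also run on simulated data with normal noise and the assumed correlation of 0.5. That run cannot tell how the fit does with outlying spots or another correlation.

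The recovered signal is the larger number of the fraction with the smallest denominator whose log2 is the deposited value, kept where the lesser number was under 5000 (85.9% to 97.1% of values). Symbols come from the platform's human annotation; probes may bind pig paralogs unequally, and no probe sequences were used. The members and lists were chosen with earlier results of these data known. Genes named were, per family, up to 3 with the smallest p, those with 1 sign on all 8 arrays, the 5 largest ratios and the 3 with 1 array farthest from their median; others were named after their values were seen. The number of arrays limits the precision. Alternatives covered centring, scaling, missing values, spots, dim values, the block, direction, dye and leaving out couples.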

Additional observations from a re-analysis of the deposited data

Results flagged for a closer look

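HNRNPUL1 had 1 array far from the others of its dye orientation: -4.26 in couple 4 with high energy in Cy3, against -0.34 to -0.0072 in couples 1 to 3. This was the only array that stood apart, in 1 of 36 groups of 4 arrays examined for the named genes. Chance flags about 1 in 20 groups that were not picked by their values. HNRNPUL1 was named in part because this array lay far from its median, so that rate does not apply to it.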

How the results depend on the processing

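No feature passed an adjusted p of 0.05 in the 16 alternative fits of the diet ratio, nor in the 5 alternative fits of the dye orientation. The count of genes with an unadjusted p under 0.05, which was 1, became 2 with all 8 arrays and the couple as a replicate block (4.65%, all features 7.02%), 2 with couples taken as independent (4.65%, all features 6.17%), 2 with high energy in Cy3 only (4.26%, all features 3.70%), 0 with high energy in Cy5 only (all features 1.90%) and 0 with the Cy3 arrays turned (all features 2.65%). With every spot on its own it was 4 genes, from 5 of 82 spots (6.10%, all spots 3.35%). Leaving out a couple gave 0 to 3, with 0 without couple 2 (all features 2.13%) and 3 without couple 1 (6.98%, all features 5.05%). LSM7 kept its sign in 16 of 17 settings, the turned one excepted, and had such a p in 13 of 16, with adjusted p-values of 0.242 to 0.999 in limma. Family medians moved by more than their SD over couples as follows. SRSF, at 0.065, became -0.038 with 2 couples sufficing, -0.063 without dim values, -0.030 turned and -0.10 in Cy5 only, and ran from -0.038 to 0.19 without a couple. LSM became 0.23 without dim values, with 3 genes left, and 0.065 in Cy5 only. HNRNP, at 0.030, became 0.071 and -0.032 in those settings and ran from -0.0084 to 0.037 without a couple. Causes were not tested. Of 20 named genes, 8 changed sign when turned, 4 without couple 4 and 3 in Cy3 only. The recovered signal is a lower bound, so brightness limits these ratios to an extent not known here. The median of the 8 arrays was added after the data were seen.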
